A study of Mus musculus with 384 samples.

Results

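The mouse mitochondrial genome carries 37 genes, and all 37 were present among the 32813 genes of the deposited tables, found by a symbol that starts with mt-. They comprised 13 protein genes, 2 ribosomal RNA (rRNA) genes and 22 transfer RNA (tRNA) genes, and all matched the GENCODE M21 annotation of assembly GRCm38 (mm10) by symbol. They were followed in single retinal cells of Kcng4-cre;stop-YFP mice at postnatal day 17. These mice carry the allele Kcng4tm1.1(cre)Jrs and the reporter Thy1-stop-YFP Line#1, in which Cre, made where Kcng4 is active, switches on a yellow fluorescent protein (YFP) driven by Thy1 sequences. Retinas were dissociated, cells were sorted by flow cytometry into plates of single wells, and libraries were made by Smart-seq2, which amplifies polyadenylated RNA over its full length from 1 cell and does not mark the strand. All animals had the same genotype and age, there was no treatment, and no cells without the reporter were included. Of 384 cells, 96 came from each of 4 retinas of 2 mice: retinas 1la and 1Ra of mouse 1, and retinas 2la and 2Ra of mouse 2. The labels do not spell out la and Ra, and the 96 well names of a retina fill 1 plate, so retina and plate cannot be told apart.

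Of 383 cells with values, 321 had at least 3000 genes at an expected count of 1 or more and were kept. Mouse 1 gave 70 (1la) and 80 (1Ra) of them, and mouse 2 gave 88 (2la) and 83 (2Ra). The kept cells were also grouped by which of 3 genes alone reached 20 TPM (a level scaled by transcript length to a fixed total per cell). Sox6, a transcription factor, was alone in 151 cells, Vsx1, a bipolar cell transcription factor, in 60, and Ddit4l, a regulator of growth signalling, in 59. None of these genes reached the threshold in 33 cells and several did in 18. Most kept cells had 1 TPM or more of 9 of 12 bipolar cell markers. None of the 8 ganglion, 6 amacrine, 4 microglia or 3 endothelium markers reached this in most cells.

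The mitochondrial genome is a small circle, transcribed from both strands into long precursors that are cut largely at the tRNAs lying between the other genes. Its protein genes encode core subunits of the respiratory chain and of ATP synthase, its rRNAs build the mitochondrial ribosome, and its tRNAs serve translation inside the organelle. All other mitochondrial proteins come from the nucleus. Most mature mitochondrial mRNAs carry short poly(A) tails, which lets oligo(dT)-primed methods such as Smart-seq2 capture them. Retinal neurons depend strongly on respiration, and the share of mitochondrial reads in a cell is also widely used as a sign of library quality.

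Several of these genes touch or share bases, which bears on how reads can be assigned. The tRNA genes shown are the 3 with the highest levels and mt-Tk, the lysine tRNA, which was chosen after its values were seen because its level ran opposite to its neighbours. Sequences are from the GENCODE M21 transcripts and capitals mark the anticodon.
mt-Ts1 (serine, minus strand, chrM:6870-6938): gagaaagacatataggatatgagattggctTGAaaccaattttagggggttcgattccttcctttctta
mt-Te (glutamate, minus strand, chrM:14071-14139): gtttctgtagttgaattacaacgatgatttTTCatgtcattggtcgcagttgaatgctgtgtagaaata
mt-Tq (glutamine, minus strand, chrM:3772-3842): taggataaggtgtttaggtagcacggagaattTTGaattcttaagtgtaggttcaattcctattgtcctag
mt-Tk (lysine, plus strand, chrM:7700-7764): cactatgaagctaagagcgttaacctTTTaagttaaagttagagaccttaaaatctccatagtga

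Stretches shared by neighbouring genes are given next on the plus strand. In the first, capitals mark the start codon of mt-Atp6 inside mt-Atp8. In the second they mark the stop codon of mt-Nd5, whose last 14 bases lie under mt-Nd6 on the other strand. In the last they mark the 3 bases at the end of mt-Co1 that also belong to mt-Ts1 on the other strand.
mt-Atp8 and mt-Atp6 (43 bases, chrM:7927-7969): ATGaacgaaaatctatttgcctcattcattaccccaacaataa
mt-Nd5 and mt-Nd6 (14 bases, chrM:13552-13565): ttaatctcgagTAA
mt-Co1 (last 30 bases, chrM:6843-6872): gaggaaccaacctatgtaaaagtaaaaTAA

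Depth differed between retinas. The kept cells of 1Ra had the lowest medians, 5317.5 genes and 759554 counts, and those of 2Ra had 6174 genes and 1052926 counts. Those of 1la and 2la had 6667 and 6876 genes and 1258579 and 1193941 counts. Summed over kept cells, a retina held 60400768 (1Ra) to 105261682 (2la) counts. Wells G12 of 1Ra and of 2Ra stood apart from all other wells. They held the highest mt- shares of all kept cells, 11.6% and 15.8%, and in both 98.1% of the mt- counts were rRNA, mt-Co1 being at 0.753% and 0.729% of them. They reached 1 TPM for only 2 and 4 of the 12 bipolar markers, against a median of 9 over kept cells. Hbb-bh1, an embryonic globin named after its values were seen, had 1304 and 2281 counts there and at most 1 in any other kept cell. Their expression profiles correlated with each other at r = 0.763, the highest of 51360 pairs of kept cells, the next being 0.697. These wells fell in the group with none of the 3 markers, so they touch only values by retina. Values below include them unless stated. Leaving them out moved the fitted log2 differences of Ra against la by at most 0.02 in the 33 protein and tRNA genes tested and by at most 0.17 in the rRNAs.

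The mt- share of all counts was higher in both Ra retinas than in both la retinas. Pooled over kept cells it was 2.21% in 1la and 4.41% in 1Ra, 2.21% in 2la and 4.93% in 2Ra. Its mean was 4.67% ± 0.368 in Ra and 2.21% ± 0.00377 in la (SD, n = 2 retinas each). The ratio was 2.12, with 2.00 in mouse 1 and 2.24 in mouse 2, and the groups did not overlap. An exact two-sided permutation test gave p = 0.333, the smallest that 2 against 2 retinas allow. Counting error was small beside this, with 95% Wilson intervals reaching at most 0.00518 percentage points to either side. Without the G12 wells the ratio was 2.08.

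Single cells largely followed the pooled values, with some overlap. In 1la the share ran from 0.0251% to 10.5% with a median of 2.06%, and in 2la from 0.337% to 4.54% with a median of 2.14%. The cells of 1Ra ran from 2.71% to 11.6% with a median of 4.26%, and those of 2Ra from 1.19% to 15.8% with a median of 4.88%. A share of at least 3%, a threshold set after seeing the data, was found in 10 of 70 cells of 1la and 5 of 88 of 2la, against 73 of 80 of 1Ra and 79 of 83 of 2Ra. The lowest cell, 0.0251% in well B1 of 1la, had 15669 TPM of summed rod markers, and well G11 of 1la, with 10.5%, had 25499 TPM. A kept cell carried on average 26975 mt- and 1193200.5 nuclear counts in 1la and 33303 and 721707 in 1Ra, 26380 and 1169775 in 2la and 52175 and 1005720.3 in 2Ra. Cells of Ra held more mt- counts and fewer nuclear counts per cell than the la cells of the same mouse.

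**Figure D1:**
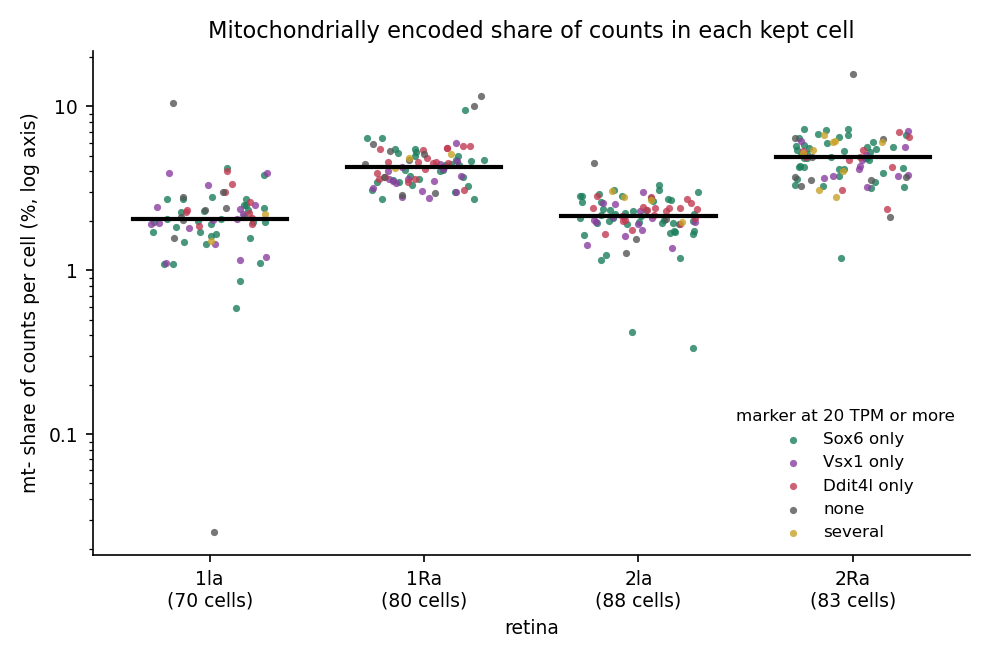
Share of counts from the 37 mt- genes in each kept cell (vertical axis, percent, log scale) by retina (horizontal axis); each point is a cell, coloured by the marker gene that alone reached 20 TPM, and black lines are medians. The medians are 2.06% in 1la and 2.14% in 2la against 4.26% in 1Ra and 4.88% in 2Ra, and the highest points of 1Ra and 2Ra are the G12 wells.

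Markers of other cell types were set beside the share, and their part in it was not tested. Summed Müller glia markers had medians of 162, 70.1, 115 and 51.7 TPM in 1la, 1Ra, 2la and 2Ra, lower in Ra in both mice. Summed rod markers had medians of 143, 75.8, 84.2 and 236 TPM, lower in Ra in mouse 1 and higher in Ra in mouse 2. Leaving out cells with 1000 TPM or more of rod markers gave a ratio of 2.16. Within a retina and without the G12 wells, the mt- share and the number of genes detected had a Spearman rho of -0.211 over 70 cells of 1la and -0.268 over 79 of 1Ra, 0.034 over 88 of 2la and -0.320 over 82 of 2Ra. Cells of a retina share a plate, so these are descriptions.

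Complex IV, cytochrome c oxidase, receives 3 subunits from the mitochondrial genome, and these made up the largest block of mt- counts in both Ra retinas. The catalytic subunit mt-Co1 took 0.480% of all counts in 1la and 1.06% in 1Ra, 0.473% in 2la and 1.23% in 2Ra, and was the highest of the 37 genes in both Ra retinas, while the rRNA gene mt-Rnr2 was the highest in both la retinas. The second core subunit, mt-Co2, stood at 0.0407%, 0.115%, 0.0465% and 0.153% in the same order. For mt-Co3, the remaining subunit, the shares were 0.0717%, 0.247%, 0.0949% and 0.290%. Both Ra values lay above both la values in each case. Fitted log2 differences of Ra against la were 1.32 (SE 0.104) for mt-Co1, 1.68 (SE 0.200) for mt-Co2 and 1.74 (SE 0.194) for mt-Co3.

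Complex III has 1 such subunit, mt-Cytb, the cytochrome b that passes electrons on from ubiquinol. Its share was 0.183% in 1la and 0.384% in 1Ra, 0.183% in 2la and 0.408% in 2Ra, a log2 difference of 1.17 (SE 0.0978). The ATP synthase subunits mt-Atp6 and mt-Atp8 belong to its membrane part, through which protons flow. For mt-Atp6 the shares were 0.178%, 0.327%, 0.173% and 0.386%, and for mt-Atp8 they were 0.0377%, 0.0845%, 0.0359% and 0.100%, in the same order. Their log2 differences were 1.08 (SE 0.126) and 1.38 (SE 0.155).

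Complex I, the NADH dehydrogenase, holds 7 members in its membrane arm, and their levels spanned a wider range than those of the other complexes. The highest, mt-Nd1, took 0.213%, 0.395%, 0.194% and 0.471% of counts in 1la, 1Ra, 2la and 2Ra. Shares of mt-Nd5 were 0.203%, 0.353%, 0.189% and 0.388%, and those of mt-Nd4 were 0.115%, 0.259%, 0.115% and 0.282%. Next in level, mt-Nd2 was at 0.0130%, 0.0300%, 0.0128% and 0.0341%.

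The 3 lowest protein genes were also in complex I. The shares of mt-Nd4l were 0.0128% in 1la and 0.0181% in 1Ra, 0.0120% in 2la and 0.0201% in 2Ra. Those of mt-Nd3 were 0.00445%, 0.00688%, 0.00438% and 0.0125%, with a wider ratio between the 2 Ra retinas than in any other protein gene. The only protein gene on the minus strand, mt-Nd6, was at 0.00632%, 0.0206%, 0.00646% and 0.0298%. Its log2 difference, 2.04 (SE 0.252), was the highest among protein genes, and that of mt-Nd4l, 0.68 (SE 0.173), the lowest. Those of mt-Nd5, mt-Nd1, mt-Nd3, mt-Nd4 and mt-Nd2 lay between, at 0.98, 1.15, 1.19, 1.29 and 1.37.

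The rRNAs differed less between sides than most protein genes. The large-subunit rRNA mt-Rnr2 took 0.549% of counts in 1la and 0.923% in 1Ra, 0.572% in 2la and 0.946% in 2Ra, and the small-subunit rRNA mt-Rnr1 took 0.0847%, 0.136%, 0.0764% and 0.135%. Their log2 differences were 0.79 (SE 0.0785) and 0.81 (SE 0.122), and 0.62 and 0.73 without the G12 wells. As a share of mt- counts, the rRNAs made up 28.7% and 29.4% in 1la and 2la against 24% and 21.9% in 1Ra and 2Ra, and 22.3% and 19.6% in the latter without the G12 wells. The complex IV genes made up 26.8% and 27.9% in the la retinas against 32.3% and 33.8% in the Ra retinas. The Ra to la ratio of the summed rRNAs was 1.67 in both mice, and 1.53 and 1.46 without the G12 wells. It was 2.41 and 2.71 for complex IV, 1.91 and 2.32 for complex I, and 1.91 and 2.33 for the ATP synthase genes, with the G12 wells. The differences between these classes were not tested.

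**Figure D2:**
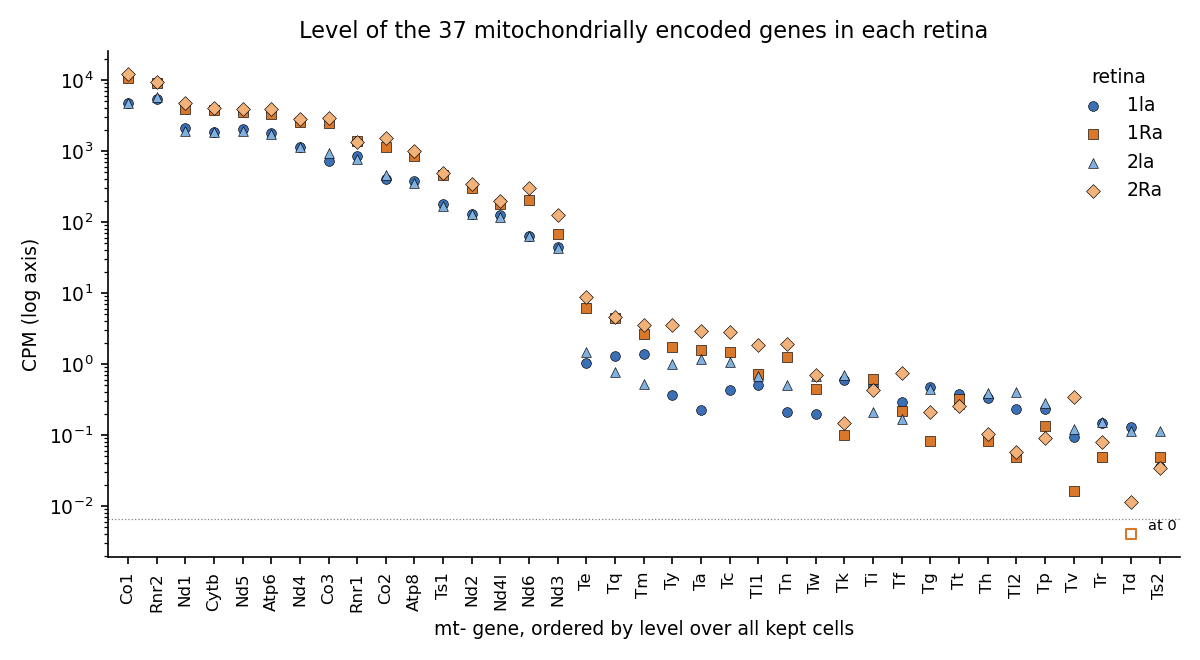
CPM (vertical axis, log scale; counts scaled to a common total) of each of the 37 mt- genes (horizontal axis, ordered by level over all kept cells) in the 4 retinas, pooled over kept cells; the open symbol under the dotted line marks a level of 0. The Ra symbols lie above the la symbols for the 15 protein and rRNA genes and for mt-Ts1, and the tRNAs other than mt-Ts1 lie below 10 CPM.

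None of these genes passed the test of Ra against la on retina sums. Of the 37 genes, 35 had enough counts to be tested, and edgeR's quasi-likelihood test with Benjamini-Hochberg adjustment over all genes called 0 of them, where it called 0.0% of 18032 genes. At an unadjusted p under 0.05, 18 of the 35 were higher in Ra and 2 lower, against 6.16% and 3.95% of all genes. Adjusted p was 0.353 for mt-Co1 and lay between 0.353 and 0.413 for the 15 protein and rRNA genes. DESeq2's Wald test on the same sums called 17 of them, all higher in Ra. It called 4.04% of all genes, and 2.91% higher in Ra. These were the 13 protein genes, both rRNAs, mt-Ts1 and mt-Te, with adjusted p from 6.92e-10 for mt-Nd6 to 0.0481 for mt-Nd4l. Without the G12 wells DESeq2 also called 17 of them. Over the 14 edgeR settings that were run, adjusted p for these 17 genes ranged from 0.337 to 0.747. In TMM-scaled CPM, both Ra retinas lay above both la retinas for 24 of the 35 genes, where 21% of all genes tested did so. They lay below both la retinas for 6 of the 35, where 22.3% of all genes did so. In plain shares of all 37 genes the counts were 24 and 7. The median log2 difference was 1.15 over the 35 genes tested and -0.01 over all genes.

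The tRNA genes were far lower than the rest, apart from mt-Ts1. The serine tRNA gene mt-Ts1 was at 179 CPM (its counts scaled to a common total for every retina) in 1la and 464 in 1Ra, 170 in 2la and 487 in 2Ra. Next came mt-Te, at 1.02, 6.25, 1.49 and 8.94 CPM, and mt-Tq, at 1.28, 4.47, 0.779 and 4.59. All 3 had both Ra retinas above both la retinas, with log2 differences of 1.503 (SE 0.148), 2.65 (SE 0.647) and 2.20 (SE 0.696). The lowest, mt-Ts2, another serine tRNA gene, had 3, 3, 12 and 2.98 counts in 1la, 1Ra, 2la and 2Ra and was not tested. For such genes 3 counts, the floor used here, correspond to 0.0285 to 0.0497 CPM.

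Some tRNA genes ran the other way. The lysine tRNA gene mt-Tk had 51 counts in 1la and 6 in 1Ra, 73 in 2la and 13.1 in 2Ra, a log2 difference of -2.31 (SE 0.776). These came from 12, 2, 14 and 4 cells. In Ddit4l-only cells of mouse 1 mt-Tk was higher in Ra, at 8e-06% in 1la and 4e-05% in 1Ra. It was lower in Ra in that group in mouse 2 and in the other marker groups in both mice. The leucine tRNA gene mt-Tl2, also named after its values were seen, had 20, 3, 42 and 5 counts, a log2 difference of -2.48 (SE 0.830). Adjusted p was 0.452 and 0.450 with edgeR. The aspartate tRNA gene mt-Td, named for the same reason and not tested, had 11, 0, 12 and 1 counts, and 0 counts in 1Ra allow up to 0.0497 CPM. In mt-Tk, mt-Tl2 and mt-Td both Ra retinas lay below both la retinas, as they did in mt-Tg, mt-Th, mt-Tp and mt-Tr. Of the 35 mt- genes tested, 6 did so in TMM-scaled CPM, where 22.3% of all genes tested did. The mt- genes thus ran this way no more often than other genes.

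The direction followed the strand in part, a pattern looked for after the values were seen. All 8 minus-strand tRNA genes were tested, and 7 were higher in Ra in both mice, mt-Tp being lower. Of these, mt-Ta, mt-Tc, mt-Tn and mt-Ty were found in few cells, mt-Ty in 9, 9, 24 and 16 of 1la, 1Ra, 2la and 2Ra. They lie side by side between bases 5018 and 5326 of chrM, so they need not vary separately. In Ddit4l-only cells these 4 genes were higher in Ra in both mice. In Vsx1-only cells of mouse 2 they were lower in Ra, mt-Ty at 0.000221% in 2la and 1.6e-05% in 2Ra. All 4 were also lower in Ra in Sox6-only cells of mouse 1, mt-Ty at 3.1e-05% in 1la and 0 in 1Ra. They were higher in Ra in Sox6-only cells of mouse 2 and in Vsx1-only cells of mouse 1. The share of all genes higher in Ra in both mice was not counted. Of the 14 plus-strand tRNA genes, 12 were tested, 4 being higher in Ra in both mice and 6 lower. The median log2 difference was 1.87 on the minus strand and 0.19 on the plus strand. These libraries do not mark strand, so reads from a minus-strand gene cannot be told apart from plus-strand RNA running across it. Smart-seq2 is not designed to capture mature tRNAs, so counts at a tRNA gene need not come from the mature tRNA.

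**Figure D3:**
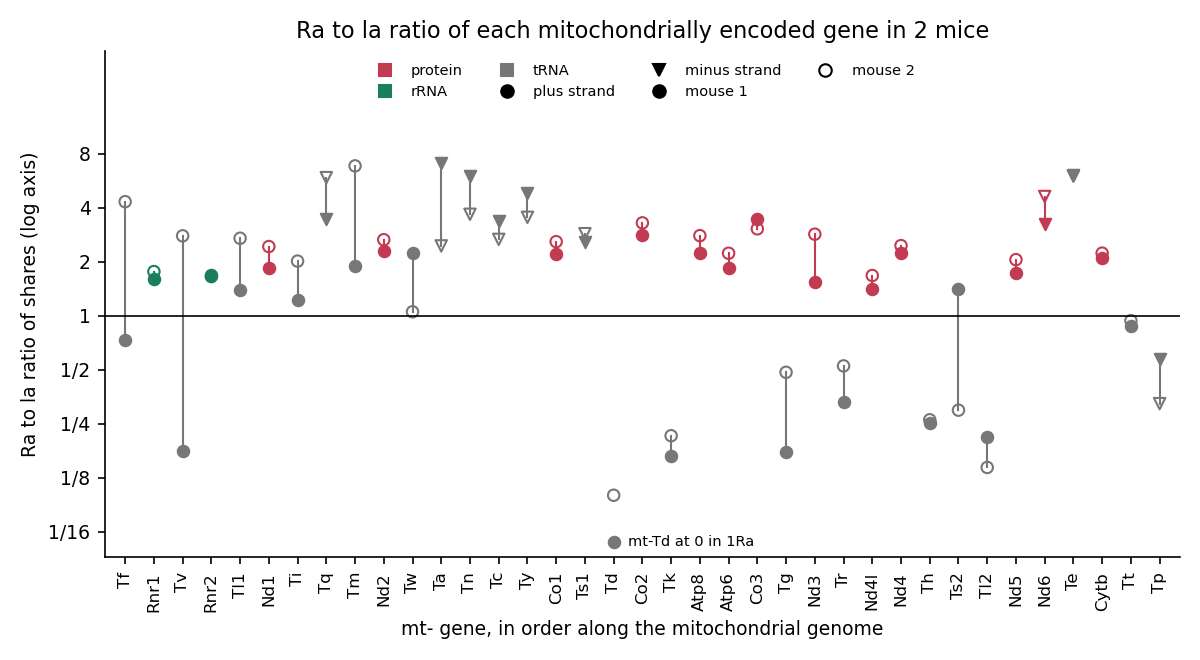
Ra to la ratio of the share of counts (vertical axis, log scale) of each mt- gene in order along the mitochondrial genome (horizontal axis); filled symbols are mouse 1 and open symbols mouse 2, circles the plus and triangles the minus strand, colours the gene type. All protein and rRNA genes lie above 1 in both mice, while the tRNA genes fall on both sides, with mt-Te near 6 and mt-Tk near 0.2.

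The 3 pairs that varied most closely together across cells were neighbours that share bases. Over the 16 genes with the highest levels, the share per cell was correlated within each retina, without the G12 wells, for all 120 pairs of genes. The median of the mean rho over retinas was 0.348. The highest pair was mt-Atp6 with mt-Atp8, which share 43 bases, at a mean Spearman rho of 0.961. Then came mt-Co1 with mt-Ts1, which share 3 bases, at 0.886 (0.863 to 0.923 in the 4 retinas), and mt-Nd4 with mt-Nd4l, which share 7 bases, at 0.781. Sharing bases did not always go with a high value, since mt-Nd5 with mt-Nd6, which share 14, had 0.509, and mt-Atp6 with mt-Co3, which share 1, had 0.428. The rRNA pair, which shares none, had 0.682, and mt-Atp6 with mt-Nd1, also sharing none, 0.640. The lowest pair was mt-Nd2 with mt-Nd6, at 0.085. All pairs share the libraries and the total count as denominator, so these are descriptions over 70, 79, 88 and 82 cells.

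Ratios between neighbouring genes differed in how far they moved with the side. Per 100 counts of mt-Co1 there were 3.73, 4.37, 3.59 and 3.98 counts of mt-Ts1 in 1la, 1Ra, 2la and 2Ra. The mature mt-Co1 transcript is known to run on across the mt-Ts1 gene, on the opposite strand. Per 100 counts of mt-Atp6 there were 21.3, 25.8, 20.7 and 26 of mt-Atp8. The balance of mt-Nd4l to mt-Nd4 was 11.1 and 10.5 per 100 in the la retinas against 6.99 and 7.12 in the Ra retinas, and did not overlap. For mt-Nd6 to mt-Nd5 it was 3.11 and 3.42 in la against 5.84 and 7.70 in Ra. For mt-Tk to mt-Co2, its neighbour upstream, it was 0.147 and 0.149 in la against 0.0086 and 0.0097 in Ra. These last ratios rest on few reads of mt-Tk, 51 and 73 counts in la against 6 and 13.1 in Ra. They came from 12 and 14 cells of la and 2 and 4 cells of Ra.

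**Figure D4:**
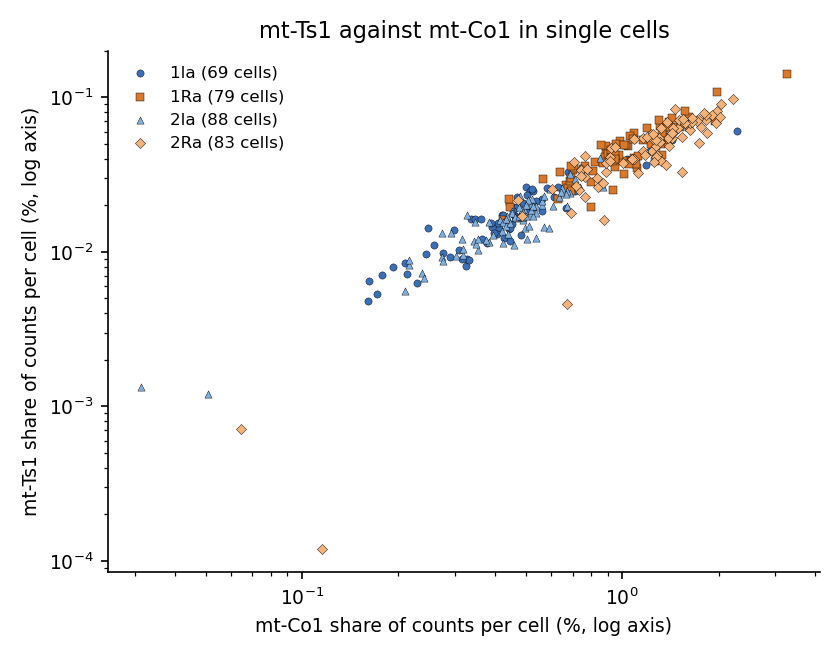
Share of counts of mt-Ts1 (vertical axis, percent) against mt-Co1 (horizontal axis, percent) in each kept cell with counts of both, on log axes; symbols give the retina. The cells of all retinas fall along 1 band, with the Ra cells toward its upper end, and Spearman's rho is 0.863 to 0.923 within retinas.

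Per unit length the order of levels changed. The deposited TPM divide by the annotated length less 26.5 bases, so that the 69 bases of mt-Ts1 count as 42.5. On this scale mt-Ts1 was the highest gene, with medians over cells of 5902 TPM in 1la and 15403 in 1Ra, 5811 in 2la and 16543 in 2Ra. It was followed by mt-Co1, at 4441, 10269, 4794 and 11655 TPM, and mt-Rnr2, at 5224, 8057, 5449 and 7516 TPM. The level of mt-Ts1 was above that of mt-Co1 in each of the 4 retinas, while mt-Rnr2 was above mt-Co1 in both la retinas and below it in both Ra retinas. At the low end of the protein genes mt-Nd3 had a mean of the retina medians of 274 TPM ± 145 and mt-Nd2 of 262 TPM ± 126 (SD, n = 4 retinas), which do not differ beyond their spread. Short divisors make TPM of tRNA genes sensitive to single reads.

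Among the marker groups, the mt- share differed by less than between retinas. Summed per mouse it was 2.88% and 3.42% in Sox6-only cells, 2.78% and 3.16% in Vsx1-only cells, and 3.62% and 3.06% in Ddit4l-only cells, for mouse 1 and mouse 2. The means were 3.15% ± 0.381, 2.97% ± 0.271 and 3.34% ± 0.395 (SD, n = 2 mice), and the sums per mouse overlapped between groups. The Ra retina gave 65.5% of the Ddit4l-only cells in mouse 1 but 33.3% in mouse 2, while it gave 46.2% to 52.9% of the other groups. Weighting the 4 retinas equally gave 3.41%, 3.14% and 3.53%. Within retinas, Ddit4l-only cells were above Vsx1-only cells in 4 of 4 retinas, at 2.55% against 2.09% in 1la and 4.54% against 3.76% in 1Ra, 2.31% against 2.02% in 2la and 4.71% against 4.69% in 2Ra. They were above Sox6-only cells in 3 of 4, as Sox6-only cells were above Vsx1-only cells. These orders of the summed share were not tested. Within every group both Ra retinas lay above both la retinas. Ra to la ratios in mouse 1 and mouse 2 were 2.14 and 2.34 in Sox6-only, 1.80 and 2.32 in Vsx1-only, and 1.78 and 2.04 in Ddit4l-only cells.

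**Figure D5:**
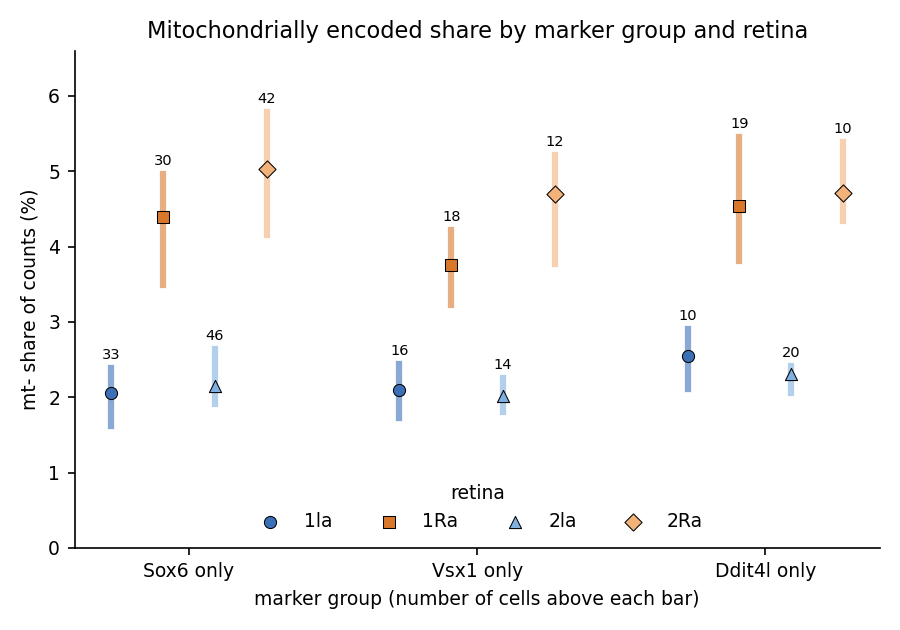
Share of counts from the 37 mt- genes (vertical axis, percent) in the 3 marker groups (horizontal axis) by retina; symbols are pooled shares, bars run from the lower to the upper quartile of cells, and numbers are cells. In each group the Ra symbols, at 3.76% to 5.03%, lie above the la symbols, at 2.02% to 2.55%.

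No mt- gene passed the test between groups on sums per mouse, and the order of the groups within retinas is given for those that kept 1 order at the top. For mt-Nd2, the share per mouse was 0.0174% and 0.0213% in Sox6-only, 0.0265% and 0.0267% in Vsx1-only, and 0.0178% and 0.0171% in Ddit4l-only cells. It was highest in the Vsx1-only cells in all 4 retinas, the only 1 of 30 genes tested that was, a share near the 3.81% of all genes that were. Its log2 difference of Ddit4l-only against Vsx1-only cells was -0.63 (SE 0.192, adjusted p = 0.321 by edgeR). For mt-Rnr2 the shares were 0.605% and 0.649% in Sox6-only, 0.603% and 0.652% in Vsx1-only, and 0.826% and 0.740% in Ddit4l-only cells. It was highest in Ddit4l-only cells in all 4 retinas, as were mt-Atp6 and mt-Atp8, making 3 of the 30, where 3.53% of all genes were. Its log2 difference of Ddit4l-only against Vsx1-only cells was 0.30 (SE 0.0944, adjusted p = 0.327 by edgeR). The Sox6-only cells were highest in all 4 retinas for 0 of the 30, where 3.71% of all genes were.

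The counts of calls between groups were as follows. Summed per mouse with the mouse as a block, 31 genes could be tested. Vsx1-only against Sox6-only cells gave 0 calls among them (0.0% of 16646 genes, and 0 at an unadjusted p under 0.05). Ddit4l-only against Sox6-only cells also gave 0 (0.0%, and 1 unadjusted), as did Ddit4l-only against Vsx1-only cells (0.0421%, and 2 unadjusted). DESeq2 called 0 mt- genes in each of the 3, with 6.16%, 5.56% and 11.7% of genes called. These fits had no term for the side, and Ra gave 65.5% of the Ddit4l-only cells in mouse 1 but 33.3% in mouse 2. The side difference can therefore add to their spread, which limits what 0 calls can show. On sums per retina, with retina as a block, edgeR called mt-Rnr2 higher in Ddit4l-only than in Vsx1-only cells, with a log2 difference of 0.27 (SE 0.0522, adjusted p = 0.0413), where 1.95% of genes were called. That fit counts retinas of the same mouse as separate replicates, so its p-value does not measure the spread between mice. The other 15 alternatives for Ddit4l-only against Vsx1-only cells called 0 mt- genes.

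Whether the side difference itself varied with the marker group was tested as an interaction over 12 sums of retina and group. For Vsx1-only against Sox6-only cells 0 of 30 mt- genes were called (0.0% of 16431 genes, and 1 unadjusted). For Ddit4l-only against Sox6-only cells 0 were called (0.00609%, and 0 unadjusted). DESeq2 called 0 in both, with 1.56% of genes called in each. For the 15 protein and rRNA genes the interaction log2 values ran from -0.49 to 0.15 and from -0.55 to 0.09.

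Nuclear genes that work with the mitochondrial genome were read from lists chosen with earlier results known. Of 28 nuclear partner subunits of the respiratory chain and ATP synthase, edgeR called 0 for Ra against la. Of these, 27 had a positive log2 difference, with a median of 0.46 against -0.01 over all genes. Among nuclear genes above 8 CPM, this median was 0.58 over transcripts of 300 to 500 bases and 0.47 over those up to 1000. It was -0.21 over those longer than 5000. The part of transcript length in the difference of the partner subunits was not tested. Together the partner subunits took 0.629%, 0.748%, 0.582% and 0.749% of counts in 1la, 1Ra, 2la and 2Ra. DESeq2 called 5 of them higher in Ra and 0 lower, where it called 4.04% of all genes, and 2.91% higher in Ra. Of the 5, those with the greatest differences were Uqcrb of complex III, Atp5j of ATP synthase and Cox5a of complex IV. Their log2 differences were 1.84 (SE 0.326), 1.55 (SE 0.276) and 1.39 (SE 0.268). Of 37 matched genes of mitochondrial transcription and RNA handling, 0 were called by either tool, with a median of 0.11. Of 11 immediate early and heat shock genes tested, 0 were called by either tool, with a median of 0.24.

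Between marker groups and in both interactions edgeR called 0 genes of these 3 lists. DESeq2 called at most 1 gene of each of the first 2 lists per comparison. It called Polg2 and Ndufv1 lower in Ddit4l-only than in Sox6-only cells, where 5.56% of all genes were called. In Ddit4l-only against Vsx1-only cells it called Fastkd1 higher and Ndufv1 lower, where 11.7% of all genes were called. It called Mtif3 higher in the interaction of Vsx1-only against Sox6-only cells, where 1.56% of all genes were called. Of the 9 immediate early and heat shock genes tested, it called 2 lower in Vsx1-only than in Sox6-only cells (Egr1 and Ier2) and 2 lower in Ddit4l-only than in Sox6-only cells (Fos and Egr1), where 6.16% and 5.56% of all genes were called. It called 1 higher and 1 lower in Ddit4l-only than in Vsx1-only cells (Hsph1 and Fos), where 11.7% of all genes were called, and 0 in both interactions.

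Transcript length moved with the side over nuclear genes. Among those above 8 CPM, the median log2 difference of Ra against la was 0.58 over 35 genes of 300 to 500 bases, 0.47 over 336 of up to 1000, 0.25 over 1289 of up to 2000, 0.03 over 5190 of up to 5000, and -0.21 over 2370 longer ones. These bins were chosen after seeing the data. The part of length in the difference of the mt- genes, or of the nuclear partner subunits, was not tested. Over the 16 mt- genes with the highest levels, the Ra to la ratio and the length had a Spearman rho of -0.121 in mouse 1 and -0.447 in mouse 2, a description over genes that share their libraries.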

How the data were processed

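Per the labels' protocols, single cells were sorted into 96-well plates and sequenced by Smart-seq2. The submitters' processing notes name RSEM 1.2.28, TopHat2 2.0.10 and assembly mm10. The annotation behind the counts is not given in the sources used here. The deposited files hold, for each cell, the authors' RSEM expected counts (estimated, not normalised) and TPM. Of the columns, 0 belonged to no sample, and 1 cell of retina 1la had no values. All mt- genes are on chrM of GRCm38 (mm10), read from GENCODE M21.

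Shares were expected counts of a gene divided by all counts of the same cells. For tests, expected counts were rounded and summed per retina (Ra against la), per mouse and marker group, or per retina and marker group. They were fitted with edgeR 4.0.16 (quasi-likelihood, filterByExpr, TMM, R 4.3.3) over all genes, and a call was an adjusted p under 0.05. DESeq2 1.42.0 was an alternative. The edgeR fits were also run on simulated counts that held no retina or mouse effect, so that run does not measure their error rates in these data. Intervals and floors cover counting error only.

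Retinas with the same number come from the same mouse per the labels. Over 18032 genes the deviations of the 2 Ra and the 2 la retinas correlated at r = 0.037. With 2 mice, p-values measure the spread between 2 animals' retinas. The sums by mouse and marker group had the mouse as a block, and Ra against la had none. Fits on sums per retina and marker group took the 2 retinas of a mouse as separate replicates. The main interaction fit had no block, so sums of the same retina were taken as independent.

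All mt- genes were accounted for. Values are given for protein and rRNA genes, the 3 highest tRNA genes, the lowest and any called, and for nuclear genes from 3 lists only where called, at most 3 per list. Other names were chosen after their values were seen. The members, the lists and the markers were chosen with earlier results of these data known.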

Additional observations from a re-analysis of the deposited data

Results flagged for a closer look

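Among the tRNA genes, mt-Tf and mt-Tv had opposite directions in the 2 mice, which was not tested. The phenylalanine tRNA gene mt-Tf had an Ra to la ratio of 0.733 in mouse 1 and 4.32 in mouse 2, from 25.1, 13, 18 and 64.9 counts in 1la, 1Ra, 2la and 2Ra. For the valine tRNA gene mt-Tv the ratios were 0.177 and 2.79, from 8, 1, 13 and 30.3 counts, the value of 1Ra being under the floor of 3 counts. Beside them, mt-Ts2 had ratios of 1.41 and 0.298, with counts at or near the floor.

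Cells left out for having under 3000 genes carried a higher pooled mt- share than kept cells. Pooled over 62 such cells the share was 22.9%, with a median of 7.62% and a range of 0 to 67.1%. By retina the pooled share was 23.6% in 1la (25 cells), 19.7% in 1Ra (16 cells), 37.1% in 2la (8 cells) and 13% in 2Ra (13 cells). Medians were 12.5%, 8.69%, 20.2% and 0.920% in 1la, 1Ra, 2la and 2Ra. The left-out cells lay above the median of the kept cells of their retina in 15 of 25, 11 of 16, 6 of 8 and 3 of 13 cases, so in 2Ra the pooled value rests on 3 cells and most were below. Their median total was 8838 counts per cell.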

How the results depend on the processing

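The count of mt- genes called for Ra against la was 0 in all 13 edgeR alternatives and 17 with DESeq2, both with and without the G12 wells (the latter added after seeing the data), and the cause was not tested. For Ddit4l-only against Vsx1-only cells it was 0 except for 1 with retina sums and the retina as a block. All other counts were 0. With the mouse as a replicate block for Ra against la the count was 0, without the block it was 0 in each comparison of marker groups, and with the retina as a block it was 0 in both interactions, so the block changed no other call. The Ra to la ratio of the mt- share, 2.12, was 1.79 with cells of at least 1500 genes and 50000 counts, 1.93 with all cells with values and 1.903 in Ddit4l-only cells. Leaving out each retina gave 2.00 to 2.23. The Vsx1-only to Sox6-only ratio, 0.944, was 0.916 with cells of at least 1500 genes and 50000 counts, 1.01 with cells of at least 5000 genes and 1.03 as a median over cells, and leaving out each retina gave 0.890 to 0.972. The Ddit4l-only to Sox6-only ratio, 1.08, ranged from 0.965 to 1.17. The 15 protein and rRNA genes, mt-Ts1 and mt-Te kept a positive log2 difference of Ra against la in every alternative. Depth limits the tRNA genes other than mt-Ts1, which had at most 785 counts per retina, and cells of 1 retina are not replicates.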
